A study of Mus musculus with 6 samples.

Results

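The 10 genes described here encode the 3 conserved complexes that set up apical-basal polarity in epithelial cells: Crb3 of the Crumbs complex, Pard3, Pard6a, Pard6b, Prkci and Prkcz of the PAR complex, and Llgl1, Llgl2, Scrib and Dlg1 of the Scribble complex. They were chosen by gene symbol, out of 18193 genes with a single symbol on the array. All 21 probe sets whose only symbol is one of these genes were used, of 45101 on the array. RNA came from whole kidneys of C57BL/6 mouse embryos at embryonic day 12.5, labelled either Ret-deficient or wild-type. Each group had 3 biological replicates with 1 array each. Which Ret allele was used, how litters were assigned and how many embryos stand behind a sample is not stated in the labels, and the source field ascribes the Ret knockout to the pregnant female while the titles ascribe it to the kidneys. Ret encodes the receptor through which the ligand GDNF drives outgrowth and branching of the ureteric bud, and the comparison asks which transcripts differ in kidneys that lack it.

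Values are MAS5 signals on a linear scale, MAS5 being the summary of one probe set's brightness by the array maker's software. Differences are Ret-deficient minus wild-type on log2(signal + 16), a scale that understates the change of dim probe sets. The number of arrays limits the precision, and with 3 arrays a group the smallest two-sided p of an exact permutation test is 0.1. The brightest of 27 bacterial control probe sets, which read 97.2 to 186.9 on the 6 arrays, served as a gauge of background. Ret read 93.3, 479.8 and 334.1 in Ret-deficient kidneys, against 13315, 11042 and 10193 in wild-type kidneys (probe set 1436359_at, log2 difference -5.43, SE 0.53, limma adjusted p = 0.51). All 8 nephron progenitor markers, among them Six2 and Eya1, lay above the background gauge on all 6 arrays. On 2 arrays other measures stood apart. Ret-deficient replicate 1 had little signal of ureteric epithelium markers, described below, and in wild-type replicate 1 the ratio of 3 prime to 5 prime signal was 10.7 for beta-actin and 4.91 for Gapdh, against 3.88 to 5.21 and 1.86 to 2.31 on the other 5 arrays.

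Epithelial polarity rests on mutual exclusion between the complexes. At the apical side, Crumbs proteins and the PAR complex, in which PAR6 holds atypical protein kinase C in check and presents its substrates, keep the apical membrane and the tight junction in place. At the basolateral side, Scribble, discs large and lethal giant larvae proteins define the opposite domain, and atypical protein kinase C phosphorylates lethal giant larvae proteins to keep them off the apical cortex. In the kidney at this stage the ureteric bud is the polarized epithelium, while the surrounding mesenchyme becomes epithelial only as nephrons form. From general knowledge of the genes, Crb3, Pard6b and Llgl2 were set down as mostly epithelial and the other 7 as broadly expressed. Prkcz, which is not restricted to epithelium, was put with the broadly expressed genes.

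Promoter letters are shown for the 2 members with a probe set whose groups did not overlap, Crb3 and Pard6b, and for a window of Pard3, whose groups overlapped at every probe set, as a comparison. Each line holds the 250 bases before an annotated start (RefSeq, build GRCm38.p6, all on the plus strand), with the letters CACCTG or their reverse complement CAGGTG in capitals. These letters are an E-box of the kind that Snail and Zeb repressors bind in epithelial genes.

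Crb3, chr17:57061951-57062200: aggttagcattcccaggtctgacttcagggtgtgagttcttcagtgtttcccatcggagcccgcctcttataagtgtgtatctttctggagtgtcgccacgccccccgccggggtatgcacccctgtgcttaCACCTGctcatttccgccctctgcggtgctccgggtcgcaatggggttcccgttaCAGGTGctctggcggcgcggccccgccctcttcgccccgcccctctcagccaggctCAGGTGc

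Pard6b, chr2:168080754-168081003: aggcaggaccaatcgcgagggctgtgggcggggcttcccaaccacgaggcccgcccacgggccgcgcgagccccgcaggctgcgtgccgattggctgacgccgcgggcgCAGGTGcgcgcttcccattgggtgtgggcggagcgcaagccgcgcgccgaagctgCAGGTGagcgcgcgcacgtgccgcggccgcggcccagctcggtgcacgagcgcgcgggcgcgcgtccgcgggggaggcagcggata

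Pard3, an inner start, chr8:127299362-127299611: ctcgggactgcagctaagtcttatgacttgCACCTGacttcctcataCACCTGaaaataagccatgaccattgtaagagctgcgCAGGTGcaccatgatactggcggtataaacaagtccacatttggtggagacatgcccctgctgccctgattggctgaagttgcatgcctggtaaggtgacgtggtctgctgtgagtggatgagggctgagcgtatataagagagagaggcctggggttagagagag

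The Crb3 window held 3 copies, which begin 118, 63 and 7 bases before the start, and a second annotated Crb3 start close by gave an overlapping window with the same 3 copies. The Pard6b window held 2 copies, at 141 and 86 bases before the start. The Pard3 window also held 3 copies, at 220, 203 and 166 bases, whereas the window of the outer Pard3 start held none. Among all 32851 promoter windows of this length, 17.2% held at least 1 copy, 2.06% held 2 or more and 0.247% held 3 or more. Besides these, 2 of the 3 Prkcz windows held the E-box letters, and the windows of Prkci, Pard6a, Llgl1 and Dlg1 did not. In all, 8 of the 10 members matched the promoter table, with 16 windows, and Llgl2 and Scrib were not matched. The letters AACCGGTT, bound by grainyhead-like factors, were in none of the 16 windows (0.116% of all windows held them). The AP-2 pattern GCCNNNGGC was in 13.7% of all windows, and among the members in 1 window each of Pard6b, Prkcz and Dlg1 and in 1 of Pard3. Both strands were searched, and no E-box copy overlapped an AP-2 match in the members. A match is a run of letters and no evidence of binding in these kidneys.

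No member passed the test between the groups. Of the 21 probe sets 15 were bright enough to be tested, at least 1 for each of the 10 genes, and 0 of these 15 passed an adjusted p of 0.05 in limma. Their adjusted p values lay between 0.921 and 0.997. Over all 22519 tested probe sets the share called was 0%. At an unadjusted p under 0.05 there was 1 of 15 member probe sets, against 5.37% of all tested probe sets. The groups did not overlap, with Ret-deficient kidneys lower, at 2 of 15 member probe sets (5.54% of all tested) and with Ret-deficient kidneys higher at 0 of 15 (5.17% of all tested). Each gene was then taken at its probe set with the highest mean. Log2 differences were below 0 for 7 genes and above 0 for 3, and their median was -0.11. The median over all tested probe sets was -0.01.

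**Figure D1:**
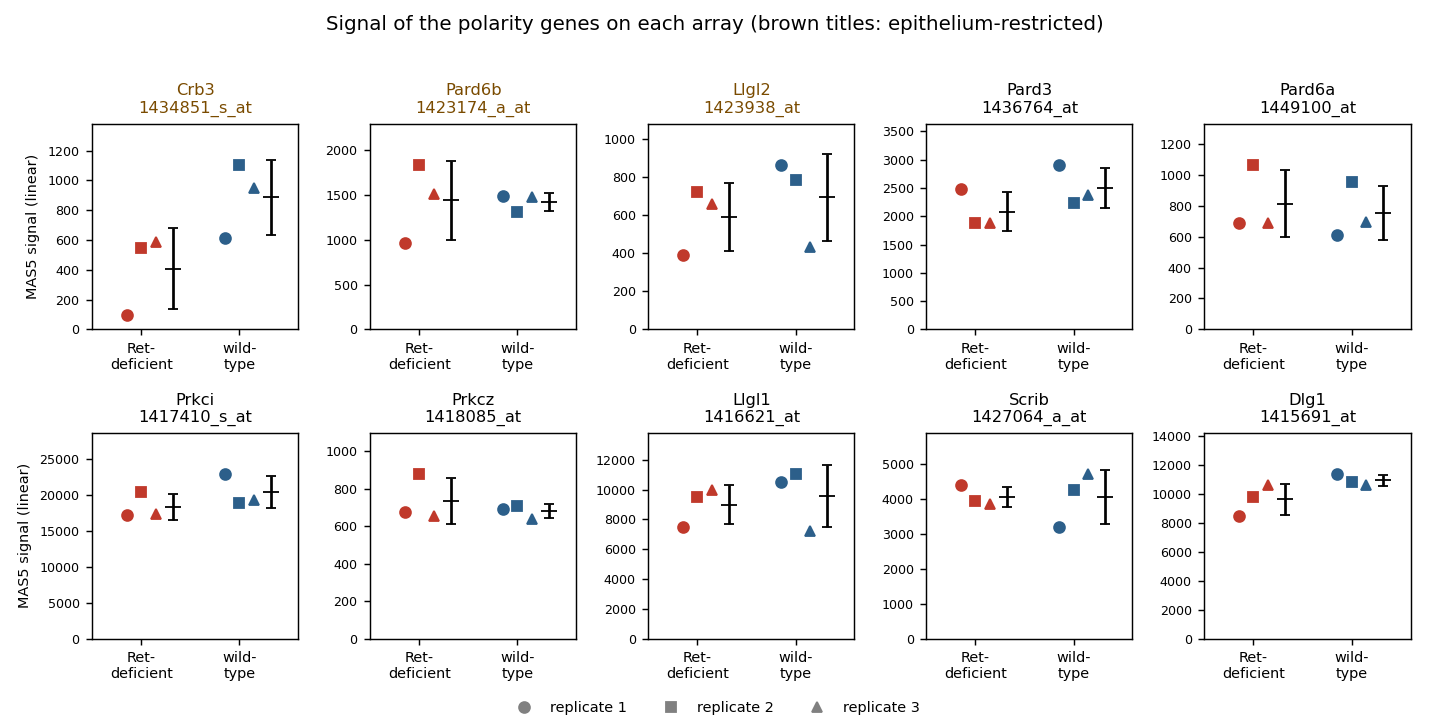
Linear MAS5 signal of each gene's highest-mean probe set on each array, with Ret-deficient arrays left of wild-type arrays in every panel, one symbol per replicate, and bars for the group mean and SD (n = 3). Only the Crb3 panel shows groups that do not overlap, with Ret-deficient replicate 1 at 94.1.

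Crb3, the Crumbs family member of most vertebrate epithelia, had the lowest log2 difference of the members. Its probe set 1434851_s_at read 94.1, 544.2 and 587.0 in Ret-deficient kidneys, against 611.8, 1104.7 and 948.8 in wild-type kidneys. The groups did not overlap, but the gap between Ret-deficient replicate 3 and wild-type replicate 1 was small, and the 94.1 of Ret-deficient replicate 1 fell short of its array's background gauge (128.2). The means were 408.4 ± 273.1 in Ret-deficient and 888.4 ± 251.9 in wild-type kidneys (signal ± SD, n = 3 each). The log2 difference was -1.40 (SE 0.66, 95% interval -2.96 to 0.17), or 2.63-fold lower on this scale, with a limma adjusted p of 0.928, a range of 0.37 to 0.9996 over the alternatives, and an exact permutation p = 0.1. Of all tested probe sets 0.417% had a log2 difference as low or lower. The size rested on Ret-deficient replicate 1: without it the difference was -0.60, while without wild-type replicate 1 it was -1.64. In whole-kidney RNA a smaller number of cells of a type cannot be told apart from less RNA per cell.

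The other Crb3 probe sets were below the brightness filter and added little. Probe set 1424809_at read 96.3, 216.5 and 145.2 in Ret-deficient kidneys, against 333.8, 194.4 and 190.0 in wild-type kidneys, with a log2 difference of -0.62 (SE 0.37) in a fit without the filter. The groups overlapped, and Ret-deficient replicate 1 was again the lowest array. Probe set 1455115_a_at was above the background gauge on 1 Ret-deficient and 2 wild-type arrays. In the array maker's naming the ending _s_at marks probes that can match transcripts of more than 1 gene, so the Crb3 value may include another transcript. The same limit holds for Pard6b 1423175_s_at, Prkci 1417410_s_at and the Wwc1 and Rab11fip5 probe sets described below, which carry this ending.

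Markers of the ureteric epithelium were lower on the same array. Of 21 markers on the list 20 had a probe set, and their summed signal was 8292, 73897 and 58779 in Ret-deficient kidneys, against 84471, 102806 and 99242 in wild-type kidneys. The log2 difference was below 0 for all 16 tested markers (median -1.12, 0 past the limma test). The groups did not overlap at 6 of these 16, against 5.54% of all tested probe sets in this direction. The marker list was written down with earlier results of these arrays known, so this count is a description. Among the untested markers Wnt7b was higher in Ret-deficient kidneys (1.59 in a fit without the filter), but lay above the background gauge on 0 arrays. On the log2 scale and relative to its wild-type mean, the median marker was -3.14 in Ret-deficient replicate 1, -0.11 in replicate 2 and -0.73 in replicate 3. Crb3 was -2.997, -0.65 and -0.54 on those arrays. In Ret-deficient replicate 1, 11 of the 20 markers were not above the background gauge, among them Cdh1, the E-cadherin gene, at 71.7, and Cldn7, a claudin gene, at 10.1. On the other 5 arrays 1 to 3 of the 20 were not. The part of these markers in the Crb3 result was not tested.

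The PAR complex showed no member past the test. Pard6b, the PAR6 adaptor of many epithelia, had 2 tested probe sets that gave different differences. Probe set 1423175_s_at read 525.8, 724.0 and 791.5 in Ret-deficient kidneys, against 976.2, 925.5 and 974.2 in wild-type kidneys. All 3 Ret-deficient arrays lay below all 3 wild-type arrays, which were close to each other. The log2 difference was -0.50 (SE 0.20, 95% interval -0.97 to -0.04, unadjusted p = 0.038, limma adjusted p = 0.921), or 1.42-fold lower, with an exact permutation p = 0.1. Its range was -0.62 to -0.33 with 1 array left out, the value nearest to 0 being that without Ret-deficient replicate 1. Probe set 1423174_a_at, with the higher mean, read 967.9, 1839 and 1515 in Ret-deficient kidneys, against 1488, 1309 and 1480.4 in wild-type kidneys. Here Ret-deficient replicate 1 was lowest, Ret-deficient replicate 2 highest, and the groups overlapped (log2 difference -0.03, SE 0.26, 95% interval -0.64 to 0.58). Without Ret-deficient replicate 1 this difference was 0.23, and it turned positive under median centring too.

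Pard6a, the PAR6 paralog that is not restricted to epithelium, read 685.8, 1065 and 688.3 in Ret-deficient kidneys, against 612.5, 951.6 and 694.4 in wild-type kidneys. The groups overlapped, with replicate 2 the highest array in each, and the log2 difference was 0.10 (SE 0.26). Pard3, the scaffold that places the complex at the junction, read 2482, 1880.3 and 1888 in Ret-deficient kidneys, against 2911, 2241 and 2369.9 in wild-type kidneys (probe set 1436764_at). Ret-deficient replicates 2 and 3 lay below every wild-type array and replicate 1 did not. The log2 difference of Pard3 was -0.27 (SE 0.19, 95% interval -0.73 to 0.19), or -0.16 without wild-type replicate 1. Its other tested probe sets, 1434775_at and 1436765_at, had -0.14 and -0.04.

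The kinases of the complex are Prkci and Prkcz, which encode atypical protein kinase C iota and zeta. Prkci read 17239, 20452 and 17333 in Ret-deficient kidneys, against 22934, 18850 and 19349 in wild-type kidneys (probe set 1417410_s_at, log2 difference -0.15, SE 0.17; -0.063 without wild-type replicate 1 and -0.23 without Ret-deficient replicate 2). Ret-deficient replicates 1 and 3 lay below every wild-type array and replicate 2 lay within their range. A dimmer Prkci probe set, 1448695_at, read 395.0, 392.6 and 205.7 in Ret-deficient kidneys, against 589.3, 316.1 and 473.3 in wild-type kidneys (log2 difference -0.47, SE 0.33). Array quality weights brought it to -0.067, leaving out Ret-deficient replicate 3 to -0.17, wild-type replicate 1 to -0.27 and wild-type replicate 2 to -0.70. Prkcz read 674.9, 878.6 and 657.3 in Ret-deficient kidneys, against 692.5, 709.1 and 639.1 in wild-type kidneys (probe set 1418085_at, log2 difference 0.10, SE 0.18). The groups overlapped at each of these probe sets.

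No member of the Scribble complex passed the test, and the log2 differences of its 4 genes lay between -0.22 and 0.02. Llgl2, the lethal giant larvae paralog of epithelia, read 389.6, 725.1 and 659.9 in Ret-deficient kidneys, against 865.9, 784.1 and 435.6 in wild-type kidneys. The lowest Ret-deficient and the lowest wild-type array were close, and the log2 difference was -0.22 (SE 0.34, 95% interval -1.03 to 0.60), or 0.05 without Ret-deficient replicate 1. Its paralog Llgl1 read 7518, 9493 and 9964 in Ret-deficient kidneys, against 10512, 11041 and 7210.5 in wild-type kidneys (log2 difference -0.08, SE 0.23), and the sign turned under median centring (0.03). For both lethal giant larvae genes, wild-type replicate 3 was the lowest wild-type array and Ret-deficient replicate 1 the lowest Ret-deficient one. Scrib, the large scaffold after which the complex is named, read 4394, 3941 and 3865 in Ret-deficient kidneys, against 3200.1, 4250.2 and 4721 in wild-type kidneys (log2 difference 0.02, SE 0.20). All 3 Ret-deficient values lay within the wild-type range. Dlg1, a membrane-associated guanylate kinase scaffold, read 8472, 9756 and 10626 in Ret-deficient kidneys, against 11363, 10803 and 10623 in wild-type kidneys (probe set 1415691_at, log2 difference -0.19, SE 0.16; -0.10 without Ret-deficient replicate 1). Ret-deficient replicates 1 and 2 lay below every wild-type array, and replicate 3 was level with the lowest of them. A second tested Dlg1 probe set, 1450768_at, had -0.12 (SE 0.23).

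The 6 untested probe sets were 2 of Crb3, 2 of Prkcz and 1 each of Pard3 and Dlg1. The Dlg1 probe set 1445798_at was above the background gauge on 0 arrays, and the Prkcz probe set 1449692_at on 0 Ret-deficient and 1 wild-type arrays. No difference is read from these 2. The other untested Prkcz probe set, 1454902_at, read 76.6, 229.4 and 271.0 in Ret-deficient kidneys, against 125.4, 248.5 and 237.3 in wild-type kidneys. Its groups overlapped (log2 difference -0.18, SE 0.51, in a fit without the filter). At this probe set of a broadly expressed gene, too, Ret-deficient replicate 1 was the lowest array.

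**Figure D2:**
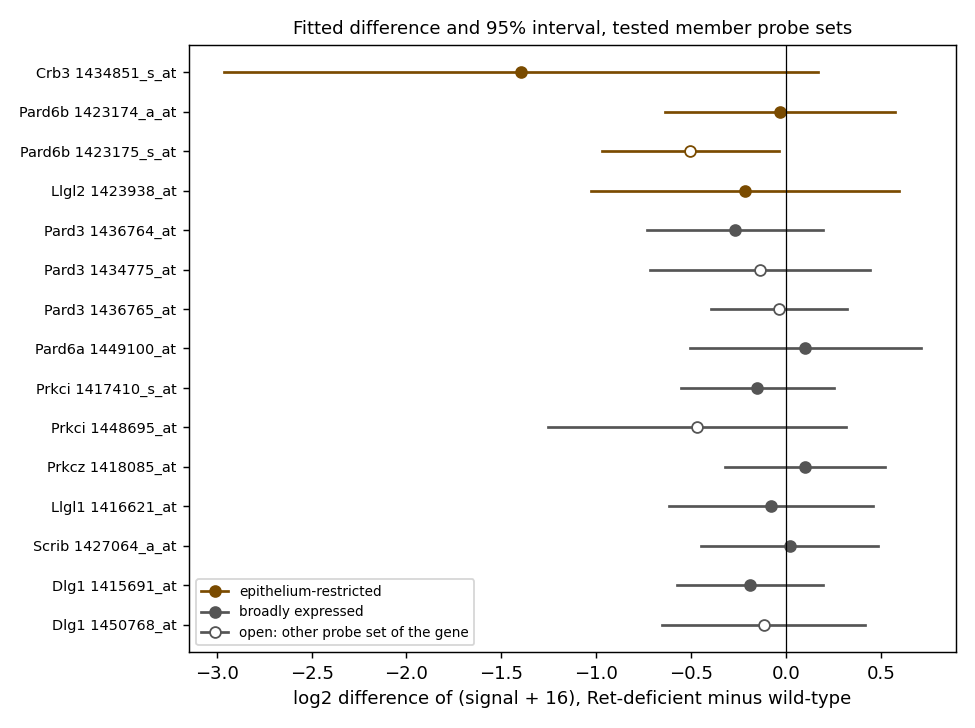
Fitted log2 difference (points) and 95% interval (lines) of the 15 tested member probe sets, Ret-deficient minus wild-type on log2(signal + 16), with filled points for each gene's highest-mean probe set. Crb3 has the lowest estimate (-1.40), and the interval of Pard6b 1423175_s_at alone excludes 0 before adjustment.

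Epithelium-restricted and broadly expressed members, as split from general knowledge, were then set side by side. In Ret-deficient replicate 1 the median ureteric epithelium marker was -3.14 on the log2 scale against its wild-type mean. Crb3 alone of the restricted genes came near it, at -2.997. Llgl2 (389.6) and the 2 tested Pard6b probe sets (967.9 and 525.8) stayed above that array's background gauge (128.2) and did not follow the markers there. The 3 restricted genes had a median log2 difference of -0.22 (range -1.40 to -0.03) and the 7 broadly expressed ones a median of -0.08 (range -0.27 to 0.10). How the classes compared on single arrays depended on the Pard6b probe set. With each gene at its highest-mean probe set, in Ret-deficient replicate 1, each restricted gene stood lower against its wild-type mean (-2.997 for Crb3, -0.75 for Llgl2, -0.55 for Pard6b) than any broadly expressed gene (-0.37 to 0.13). In replicate 2 of that group the restricted median was 0.12 and in replicate 3 it was -0.02, and the broadly expressed median 0.01 and -0.05. On that 1 array, 5 of the 10 members (the 3 restricted genes, Prkci and Dlg1) lay below every wild-type array, a position held there by 28.8% of all tested probe sets. Without Ret-deficient replicate 1 the restricted median was 0.05. With Pard6b taken at 1423175_s_at instead, a choice added after seeing the data, the restricted median was -0.85, -0.40 and -0.27 on the Ret-deficient arrays. The difference between the groups was then -0.50, and without Ret-deficient replicate 1 it was -0.33, with no change of direction. A median of 3 genes is the value of 1 gene. The values with 1423175_s_at were those of this Pard6b probe set itself, and the restricted medians given before them were those of Llgl2. The broadly expressed median turned to 0.03 under median centring and to 0.04 without wild-type replicate 2. Among the restricted genes Crb3 alone was below every wild-type array in Ret-deficient replicates 2 and 3 at its highest-mean probe set.

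**Figure D3:**
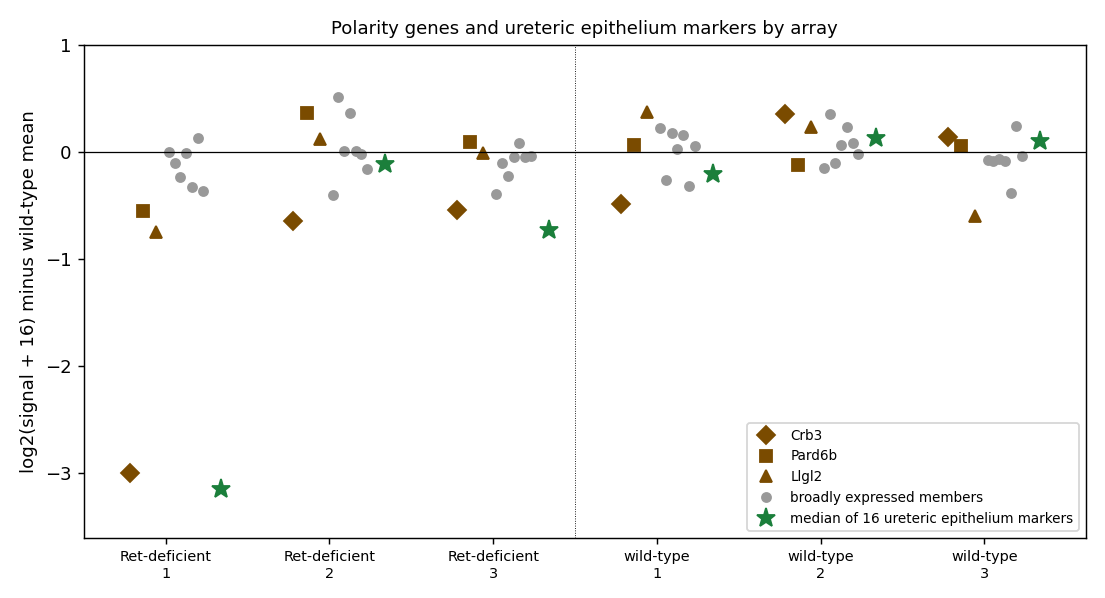
Each member's log2(signal + 16) minus its wild-type mean (vertical axis) on each array (horizontal axis, Ret-deficient arrays at the left). Brown symbols are the epithelium-restricted genes, grey points the 7 broadly expressed genes and green stars the median of 16 ureteric epithelium markers. In Ret-deficient replicate 1 the 3 brown symbols lie below all grey points, with Crb3 at -2.997 and the star at -3.14.

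Pairs of paralogs on the same array give a comparison that scaling of a whole array does not move. The log2 ratio of Llgl2 to Llgl1 differed by -0.14 between Ret-deficient and wild-type kidneys (SD 0.27 in Ret-deficient, 0.21 in wild-type, n = 3 each, exact permutation p = 0.6). The ratio of Pard6b to Pard6a differed by -0.13 (SD 0.32 in Ret-deficient, 0.42 in wild-type, n = 3 each, exact permutation p = 0.8). Both differences were smaller than the spread between replicates and changed sign without Ret-deficient replicate 1 (0.0059 and 0.021). With Pard6b at 1423175_s_at the second was -0.61 (SD 0.39 in Ret-deficient, 0.36 in wild-type, n = 3 each, exact permutation p = 0.2). The ratio of Prkci to Prkcz, taken against its wild-type mean, was -0.23, -0.35 and -0.18 on the Ret-deficient arrays, and 0.15, -0.17 and 0.02 on the wild-type arrays. The ratio used Prkci 1417410_s_at alone, and a ratio with the other tested Prkci probe set, 1448695_at, was not computed. The signals of both Prkci probe sets, taken by themselves, overlapped between the groups. At 1417410_s_at the ratio did not overlap between the groups, though the closest arrays were nearly level. Its change was -0.25 (exact permutation p = 0.1, the smallest it can be), and -0.34 to -0.18 with 1 array left out. These were 3 comparisons of pairs, and the exact permutation test cannot pass a threshold of 0.05 with 3 arrays a group.

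Other genes of the polarity machinery were followed in 4 lists, written down with earlier results of these arrays known. Each gene was read at its highest-mean probe set alone. Of the genes named from these lists, Ect2 and Stx4a had 1 probe set each and the others 2 to 4. The further probe sets were not examined, so a value given is that of 1 probe set. None of the tested genes on the 4 lists passed the limma test in either direction. Among 7 tested Crumbs partners the log2 difference was below 0 for 4 and above 0 for 3 (median -0.22). Mpp5, which encodes the PALS1 scaffold that binds the Crumbs tail, read 4104, 6273 and 6247 in Ret-deficient kidneys, against 9438, 7104 and 8739 in wild-type kidneys. Every Ret-deficient array lay below every wild-type array, with a log2 difference of -0.62 (SE 0.23, adjusted p = 0.916; -0.42 without Ret-deficient replicate 1). Lin7c, a small PDZ protein gene of the same scaffold, also had groups that did not overlap (-0.36, SE 0.17). Lin7a was higher in the mean with overlapping groups (0.84, SE 0.44, and 0.39 without Ret-deficient replicate 3). Of the 7 tested partners, 2 had groups that did not overlap with Ret-deficient kidneys lower, and 1 with them higher. The shares over all tested probe sets were 5.54% and 5.17%.

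Among 12 PAR partners and regulators the log2 difference was below 0 for 7 and above 0 for 5 (median -0.05). Wwc1, which encodes the KIBRA scaffold, an atypical protein kinase C partner, read 1887, 3139.7 and 2390.2 in Ret-deficient kidneys, against 3269.8, 4124 and 3516 in wild-type kidneys. Those groups did not overlap (log2 difference -0.58, SE 0.23, limma adjusted p = 0.921). On this list that held for 3 of 12 genes with Ret-deficient kidneys lower and 0 with them higher. The shares over all tested probe sets were 5.54% and 5.17%. Ect2, a guanine nucleotide exchange factor gene, had -0.48 (SE 0.20) and Pard3b, the PAR3 paralog, 0.55 (SE 0.28; 0.84 with wild-type replicate 1 left out, 0.30 with wild-type replicate 3 left out).

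The 12 Scribble partners split into 4 below 0 and 8 above 0 (median 0.05). Dlg4, a discs large paralog best known from synapses, read 992.2, 1282 and 948.8 in Ret-deficient kidneys, against 688.2, 686.6 and 623.2 in wild-type kidneys. All Ret-deficient arrays lay above all wild-type arrays, with a log2 difference of 0.67 (SE 0.18, limma adjusted p = 0.867). On this list groups did not overlap for 1 of 12 genes with Ret-deficient kidneys higher and 1 with them lower. The shares over all tested probe sets were 5.17% and 5.54%. Dlg2, another discs large paralog, had 0.77 (SE 0.38; 1.21 with wild-type replicate 1 left out, 0.47 with wild-type replicate 2 left out) and the syntaxin gene Stx4a 0.31 (SE 0.18), both with overlapping groups. Neural crest and neuron markers had a summed signal of 2819.8 to 4555 in Ret-deficient kidneys, against 7263 to 9052 in wild-type kidneys, over 4 of 6 markers with a probe set. Of these 4, Th, below the brightness filter, had the higher mean in Ret-deficient kidneys, with overlapping groups. The part of these markers in the Dlg4 and Dlg2 values was not tested.

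For apical trafficking and the lumen, 7 of 11 tested genes were below 0 and 4 above 0 (median -0.06). Rab11fip5, an effector of the recycling GTPase RAB11, read 6667, 5328 and 7853 in Ret-deficient kidneys, against 3790.0, 4372 and 3939.8 in wild-type kidneys (log2 difference 0.70, SE 0.19, adjusted p = 0.867). Anxa2, an annexin of the apical membrane that other cells express too, had 0.57 (SE 0.18). Both had groups that did not overlap. On this list that held for 2 of 11 tested genes with Ret-deficient kidneys higher and 0 with them lower. The shares over all tested probe sets were 5.17% and 5.54%. The motor gene Myo5b had -0.42 (SE 0.23; -0.25 without Ret-deficient replicate 1) with overlapping groups. Renal stroma and macrophage markers had higher mean sums in Ret-deficient kidneys alongside Rab11fip5 and Anxa2, in sums that overlapped between the groups for macrophages. The stroma sum was 117701 to 145085 in Ret-deficient kidneys, against 90880.2 to 107909 in wild-type kidneys over 10 of 10 markers, and the macrophage sum 25661 to 70299 in Ret-deficient kidneys, against 19913 to 31268 in wild-type kidneys over 10 of 10 markers. Their part in these values was not tested.

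The genes whose pattern lay nearest to an epithelium-restricted member were found among 11141 genes by the root mean square difference of log2 values, each minus its own wild-type mean, over the 6 arrays. For Crb3 they were Lad1, the ladinin gene (0.17 log2 units), Map7, a microtubule-associated protein gene (0.18), Ocln, which encodes the tight junction protein occludin (0.20), Defb19, a beta-defensin gene (0.23), and Ap1m2, which encodes the epithelial subunit of the AP-1 sorting adaptor (0.29). Ocln read 146.2, 1042 and 1015 in Ret-deficient kidneys, against 930.1, 2149 and 2029 in wild-type kidneys. Like Crb3, Ocln was lowest in Ret-deficient replicate 1 and, among wild-type arrays, in replicate 1. Because the genes were picked for their likeness to the member on these 6 arrays, shared low arrays follow from the selection. For Pard6b (probe set 1423174_a_at) the nearest genes were Rpp40, Glb1l2, Vat1, Mif4gd and Ppp1r3c, at 0.08 to 0.11. For Llgl2 they were Cog7, Map9, Cdyl2, Zfp2 and Cdc73, at 0.09 to 0.15. The 3 sets shared no gene.

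**Figure D4:**
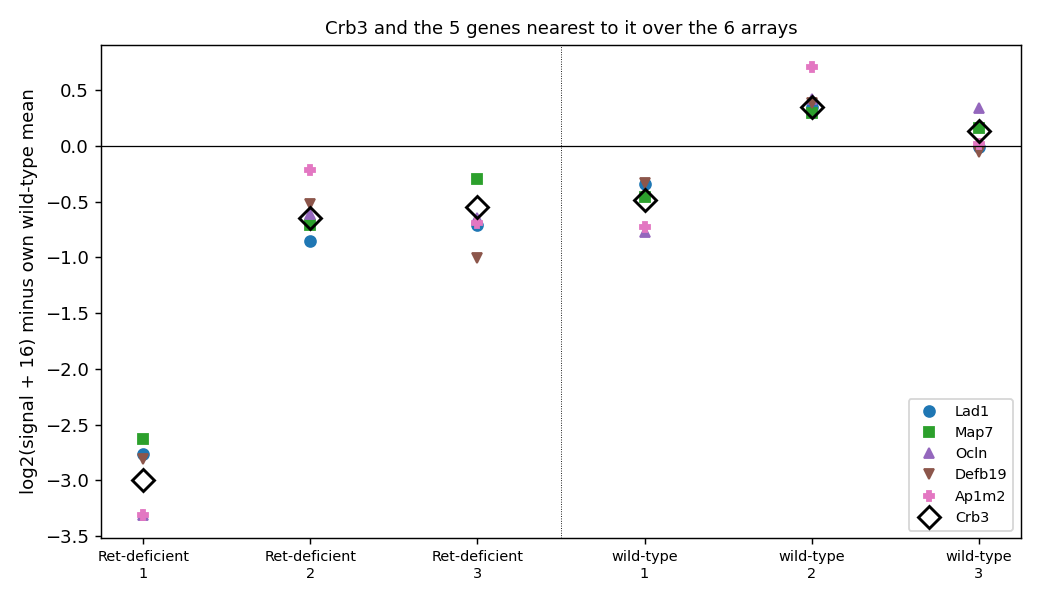
Log2(signal + 16) of Crb3 (open diamonds) and of its 5 nearest genes, each minus its own wild-type mean, on the 6 arrays with Ret-deficient arrays at the left. All 6 genes lie below -2.6 in Ret-deficient replicate 1 and between -1.1 and -0.2 in Ret-deficient replicates 2 and 3. The 5 genes were picked for this likeness to Crb3.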

How the data were processed

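RNA of 3 Ret-deficient and 3 wild-type kidney samples was measured on Affymetrix mouse arrays, grouped by the sample titles. The deposited values are intensities (MAS5 signals), per the submitters' processing notes; the software version and scaling target were not found in the labels. The authors' values are linear, above 0, and have a trimmed mean (2 percent off each end) of 2500.01 on every array, with medians of 258.9 to 351.6. RNA was amplified by a commercial kit, per the labels' design text.

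Signals were used as log2(value + 16). After removal of 64 control probe sets, the 22519 probe sets at or above the median mean log2 value (a signal of 276.2) were tested with limma 3.58.1 in R 4.3.3 (lmFit, eBayes, Benjamini-Hochberg over all tested probe sets, threshold 0.05). Members below the filter came from a fit of all probe sets. Exact permutation tests were two-sided. Symbols came from the array annotation, updated by gene ID with RefSeq names (GRCm38.p6). The test was checked on simulated data. Figures used matplotlib 3.10.9.

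Named genes were all members, at most 3 related genes per list by smallest unadjusted p, 5 nearest genes for each of the 3 epithelium-restricted members without clone names, and Ret; the marker genes given by name were picked after their values were seen. The members, the split and all lists were chosen with earlier results of these data known. Alternatives were a pseudocount of 1 or 64, no filter or only the brightest 30 percent, median centring or quantile normalization, a variance trend on intensity, array weights, leaving out each array, a block for replicate number, averaging the probe sets of a gene, an adjusted p of 0.1, Prkcz counted as epithelium-restricted and, added after seeing the data, Pard6b at its other tested probe set. The replicates are labelled biological, and p values measure the spread between these samples.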

Additional observations from a re-analysis of the deposited data

How the results depend on the processing

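No member probe set passed an adjusted p of 0.05 under any alternative. Over all probe sets the count of 0 became 1, Ret itself, with median centring, with an intensity trend and without Ret-deficient replicate 1 (0 to 1 with 1 array left out). Averaging the probe sets of a gene was not applied to the 12 named related genes. Crb3, Pard6b 1423175_s_at, Pard3 1436764_at, both Prkci probe sets, Dlg1 1415691_at, the Prkci to Prkcz ratio and the 12 named related genes kept their sign throughout. Their sizes moved: Prkci 1417410_s_at was -0.039 with median centring, -0.049 with array quality weights and -0.31 as the mean of its probe sets, Pard3 1436764_at was -0.16 with median centring, -0.14 with weights and -0.15 as a mean, Dlg1 1415691_at was -0.078 with centring, Dlg2 1.22 with weights and the Prkci to Prkcz ratio -0.16 with weights. Crb3 ranged from -1.82 to -0.60 with 1 array left out. Median centring moved the median of all tested probe sets by 0.11, and under it Pard6b 1423174_a_at was 0.081, Llgl1 0.034, Pard3 1436765_at 0.076 and the broadly expressed median 0.034. Quantile normalization gave 0.031 for Pard3 1436765_at. With array quality weights Pard6b 1423174_a_at was 0.041, Pard6a -0.067, Scrib -0.070, Pard3 1434775_at 0.0051 and the Pard6b to Pard6a ratio 0.11. With 1 array left out, the restricted median ranged from -0.51 to 0.051, the broadly expressed median from -0.19 to 0.036, Pard6b 1423174_a_at from -0.23 to 0.23, Llgl2 from -0.51 to 0.051, Pard6a from -0.10 to 0.28, Prkcz from -0.028 to 0.18, Llgl1 from -0.27 to 0.045, Scrib from -0.14 to 0.14, Pard3 1434775_at from -0.31 to 0.11, Pard3 1436765_at from -0.082 to 0.012, Dlg1 1450768_at from -0.29 to 0.040, the Llgl2 to Llgl1 ratio from -0.26 to 0.0059 and the Pard6b to Pard6a ratio from -0.37 to 0.032. The cause of these changes was not tested. The stricter filter kept the highest-mean probe set of 5 of the 10 members, so it gave no class median or paralog ratio. Residuals of samples with the same replicate number correlated at 0.03, -0.04 and -0.12, and not every sample correlated best with its own number (1 of 6 did), so the numbers were not taken as pairs. With the replicate block the count of called probe sets was 0 and Crb3 had -1.40 (adjusted p = 0.957). Signal near background limits Crb3 in Ret-deficient replicate 1.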
